A study of Rattus norvegicus with 2 samples.

Results

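The genes described here belong to bone morphogenetic protein (BMP) and transforming growth factor beta (TGF-beta) signalling, together with the Id genes that this signalling is known to switch on. They were taken from a list of 43 gene symbols, of which 40 had at least 1 probe set carrying that symbol alone, among 14218 genes named on the array. Acvr1b, Bmpr1b and Tgfbr2, which encode receptors, had no probe set named in this way and were not analysed here. Each gene was read at its brightest probe set, by the mean of both arrays, and its other probe sets were examined as well.

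Expression was measured in cultured astrocytes, the supporting glial cells of the brain, grown from hippocampi of Sprague-Dawley rats of normal genotype at embryonic day 18. The control culture carried a vector that expresses a red fluorescent protein, labelled IRES2-RFP. The other culture carried a vector with both 5ppase and the fluorescent protein, labelled 5ppase-IRES2-RFP (another label spells it 55ppase-IRES-RFP). The name 5ppase is not spelled out in the labels. It commonly stands for a phosphatase that removes inositol trisphosphate, which opens calcium stores. The labels describe the control as having active calcium signalling and the 5ppase culture as having none, and they do not give the promoter of the vector, the share of cells that carried it or the number of cultures pooled. Total RNA of each group was hybridised to 1 single-colour Affymetrix rat array, so there were no replicates, no difference below has a replicate check or a test, and precision is limited by their number.

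BMPs and TGF-betas are secreted dimers that bind pairs of type I and type II receptor kinases on the cell surface. The activated type I receptor phosphorylates receptor-activated Smad proteins, Smad1 and Smad5 downstream of BMPs and Smad2 and Smad3 downstream of TGF-beta and activin, which enter the nucleus with Smad4. Extracellular antagonists such as noggin trap the ligands, whereas Bambi, Smad6 and Smad7 act as feedback inhibitors at the receptor. The Id genes are direct BMP targets, and their proteins block basic helix-loop-helix transcription factors. In neural precursors BMP signalling is known to favour astrocyte over neuron and oligodendrocyte formation.

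Noggin, the ligand Bmp6 and the pseudoreceptor Bambi were higher on the 5ppase array than on the control array, and no gene of the list bright enough to be compared was lower by as much. Nog gave a signal of 277 in control and 630 in 5ppase, Bmp6 gave 1153 and 2325, and Bambi gave 1831 and 3422. Their log2 ratios, here and below 5ppase over control, were 1.18, 1.01 and 0.90. The 4 Id genes lay within 1.5-fold of equal signal at their brightest probe sets.

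A floor was set at 62.0, the 40th percentile of all signals, below which values were replaced by it, and a gene was counted as measured when its mean signal lay above that floor. This held for 38 of the 40 genes. A gene entered the counts of fold differences when both of its signals exceeded the floor and the brighter reached 208, the 60th percentile, which 31 of the 40 did. Of these 31, 3 were at least 1.5-fold higher in 5ppase, beside 5.25% of all 8261 genes compared, and 2 were at least 2-fold higher, beside 1.5%. None (0) was at least 1.5-fold lower, beside 5.46%, and 0 were at least 2-fold lower, beside 1.42%. The higher calls rest on 3 genes, so their share of 9.68% is a description of these genes and not a property shown for the pathway. When a pseudocount replaced the floor and the filter, the order of the shares turned, to 10% of 40 beside 14.1% of all genes. Of the 38 measured genes 23 had a positive log2 ratio and 15 a negative one, and positive ratios made up 48.6% of all measured genes. The median log2 ratio was 0.11 over the 38 and -0.012 over all 10255 measured genes.

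The only repeat of a measurement within these arrays is a further probe set of the same gene. Over 1881 genes with a pair of probe sets compared, the spread of the log2 ratio between probe sets, as an SD for 1 probe set, was 0.26. This includes noise of probes and hybridisation but leaves out differences between cultures. It also leaves out whatever probe sets of a gene share on an array, such as RNA extraction and labelling. The spread was pooled over compared genes of all signal levels, and whether it differs between bright and dim genes was not examined. As 1 SD it is a yardstick, and a ratio beyond it is not thereby shown to be more than noise. From the 5th to the 95th percentile, compared genes had log2 ratios between -0.61 and 0.60. The ratios of Nog, Bmp6 and Bambi, which were singled out for their size, lay beyond both. Those of the 4 Id genes lay within both.

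**Figure D1:**
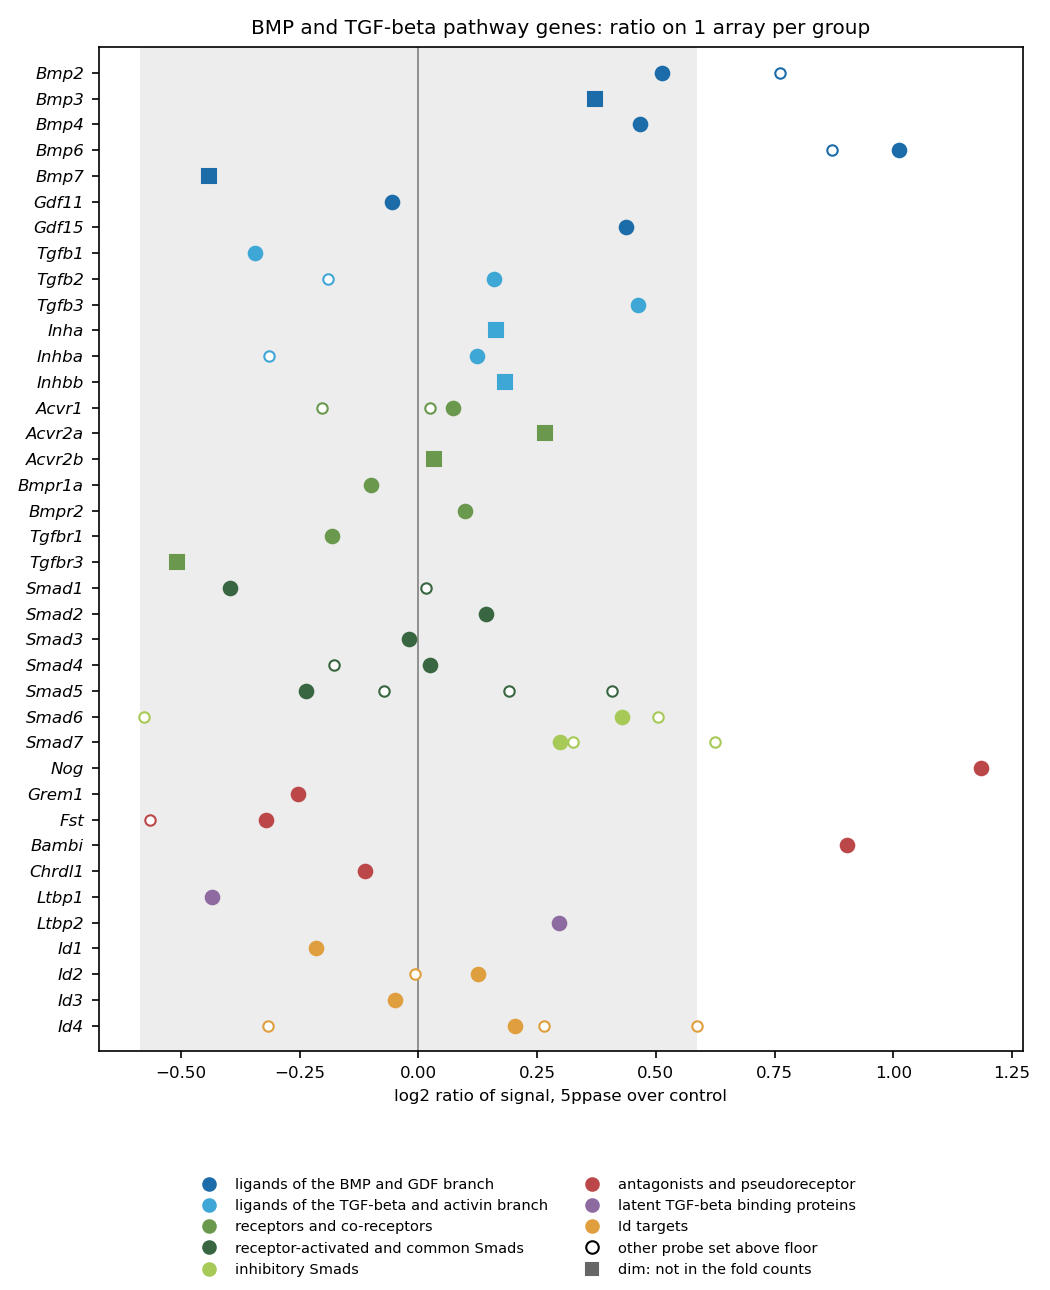
Log2 ratio of signal, 5ppase over control (horizontal axis), for each of the 38 measured genes, coloured by role. Filled points are the brightest probe set (squares for genes too dim to enter the fold counts), open points are other probe sets above the floor on both arrays, and the grey band spans 1.5-fold either way; Nog, Bmp6 and Bambi lie to its right and no filled point lies to its left.

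The 250 bases before the annotated start of the genes at least 1.5-fold apart are printed because these are the genes on which the comparison turns. They come from RefSeq on the rat build GRCr8 and run 5′ to 3′ on the strand of the gene, which is the minus strand for each. Capitals mark GGCGCC, a GC box of the kind found in BMP-responsive enhancers, and TGACG or its reverse complement CGTCA, the short core of the cAMP and calcium response element. Nog lies at chr10:74627502-74627751, Bambi at chr17:58821004-58821253 and Bmp6 at chr17:26675262-26675511.
Nog: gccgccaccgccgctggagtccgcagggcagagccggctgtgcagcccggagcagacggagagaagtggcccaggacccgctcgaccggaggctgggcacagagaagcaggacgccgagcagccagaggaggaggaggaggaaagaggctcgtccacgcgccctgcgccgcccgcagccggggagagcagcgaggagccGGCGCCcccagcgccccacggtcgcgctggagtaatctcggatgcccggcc
Bambi: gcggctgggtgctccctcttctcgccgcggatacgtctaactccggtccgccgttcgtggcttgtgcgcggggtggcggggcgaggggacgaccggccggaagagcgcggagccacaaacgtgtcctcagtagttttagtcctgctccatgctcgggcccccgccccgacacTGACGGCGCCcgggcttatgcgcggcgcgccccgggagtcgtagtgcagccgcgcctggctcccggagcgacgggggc
Bmp6: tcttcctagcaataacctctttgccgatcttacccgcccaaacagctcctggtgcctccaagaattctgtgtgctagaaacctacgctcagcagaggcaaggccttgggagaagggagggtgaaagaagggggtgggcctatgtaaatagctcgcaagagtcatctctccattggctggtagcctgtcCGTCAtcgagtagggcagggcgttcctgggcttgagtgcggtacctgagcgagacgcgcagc
GGCGCC, which reads the same on both strands, began 51 bases before the start of Nog and 74 bases before that of Bambi, and the Bmp6 window held none. In Bambi it shares a base with a TGACG that began 78 bases before the start, and Bmp6 held CGTCA 62 bases before its start. Windows were found for 37 of the 43 listed genes, and GGCGCC occurred in 10 of them, beside 8.69% of all 33469 windows and 17.8% of those of compared genes. Those that held it were Nog, Bambi, Smad7, Grem1, Gdf10, Inhbb, Acvr1b, Tgfbr1, Tgfbr3 and Smad2, and none of the Id windows did. TGACG on either strand occurred in 10 of the 37, beside 18.2% of all windows and 29.7% of those of compared genes. The full element TGACGTCA, which contains that core, occurred in 1 window, that of Ltbp1, beside 1.59% of all windows and 2.99% of those of compared genes. AGAC or its reverse complement GTCT, the core of the Smad binding element, is left unmarked because 84.0% of all windows held it, and 26 of the 37 did. Such matches describe letters in these windows and show no binding, and bases further away were not searched. GC bases made up 74% of the Nog window, 72.4% of that of Bambi and 56.4% of that of Bmp6, beside a median of 60.8% for compared genes.

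Among the ligands of the BMP and growth and differentiation factor (GDF) branch, 5 of the 7 measured genes had a positive log2 ratio, and the median was 0.44. Bmp6, which signals through BMP type I receptors and is best known for its control of iron balance in liver, was 2.02-fold higher in 5ppase, and 1.44% of compared genes had a ratio as large. Its second probe set gave 857 in control and 1567 in 5ppase, a log2 ratio of 0.87. Both bright probe sets of Bmp6 thus pointed the same way, and its other 2 probe sets were under the floor on both arrays, at 32.6 and 19.0 and at 12.6 and 20.8.

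Bmp2 and Bmp4, close paralogues that drive dorsal patterning and astrocyte formation, were both somewhat higher in 5ppase, by less than 1.5-fold at their brightest probe sets. Bmp2 gave 1476 and 2105, a log2 ratio of 0.51, and a second probe set gave 338 and 573, a log2 ratio of 0.76. Bmp4 gave 1517 and 2096 at its single probe set, a log2 ratio of 0.47. Gdf15, a stress-induced factor, gave 288 and 390, a log2 ratio of 0.44. These 3 ratios lay below that of Bmp6 and above the probe set spread of 0.26, and between 6.68% and 8.79% of compared genes had ratios as large. Gdf11, a relative of myostatin, gave 993 and 955, a log2 ratio of -0.056. Its second probe set lay under the floor on both arrays.

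The remaining ligands of this branch were dim. Bmp3, an atypical member that opposes other BMPs, gave 88.7 and 114.7, and Bmp7 gave 88.5 and 65.2, log2 ratios of 0.37 and -0.44. Neither reached the signal required for the fold counts. Gdf10 gave 17.6 and 17.9, under the floor on both arrays.

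The TGF-beta isoforms differed in sign. Tgfb3 gave 9627 in control and 13261 in 5ppase, a log2 ratio of 0.46. Tgfb1, the isoform induced in injured brain, gave 1027 and 809, a log2 ratio of -0.34. Tgfb2 gave 7748 and 8658, a log2 ratio of 0.16, while its second probe set gave 3814 and 3342, a log2 ratio of -0.19. Tgfb3 and Tgfb1 were thus on opposite sides of equal signal by more than the probe set spread, neither reached 1.5-fold, and each had 1 probe set.

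The activin and inhibin subunits were near equal signal. Inhba, the subunit that forms activin A, gave 12016 and 13084, a log2 ratio of 0.12, and its second probe set gave 974 and 783, a log2 ratio of -0.32. Inhbb gave 133 and 151 and the inhibin alpha subunit Inha gave 96.2 and 107.8, both too dim for the fold counts. The median log2 ratio of the 6 genes of the TGF-beta and activin branch was 0.16, with 5 positive and 1 negative, or 3 and 3 with Tgfb2 and Inhba read at their second probe sets.

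The receptors differed little. Of the 7 measured receptors and co-receptors 4 had a positive and 3 a negative log2 ratio, with a median of 0.032. Bmpr2, the BMP type II receptor, gave 1314 and 1406, a log2 ratio of 0.10. Its partner Bmpr1a gave 807 and 753, a log2 ratio of -0.10. Acvr1, a type I receptor used by BMP6 and BMP7, gave 1358 and 1429, a log2 ratio of 0.07, and its other 2 probe sets gave 0.02 and -0.20. Tgfbr1, the TGF-beta type I receptor, gave 1269 and 1119, a log2 ratio of -0.18. All 4 of these genes lay within the probe set spread of equal signal. Their partner receptors Tgfbr2 and Bmpr1b were not analysed here, so the receptor set is incomplete.

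The other receptor signals were dim. The activin type II receptors gave 173 and 208 for Acvr2a and 84.9 and 86.8 for Acvr2b. The co-receptor Tgfbr3, also called betaglycan, gave 88.2 in control and 38.9 in 5ppase, the second of these under the floor. Its log2 ratio was -0.51 with the floor in place and -1.18 with a lower one, at the 25th percentile. Its second probe set gave 13.1 and 63.9, the opposite order, so its direction was not settled. Endoglin (Eng), a co-receptor typical of endothelial cells, gave 9.8 and 29.3, under the floor on both arrays.

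**Figure D2:**
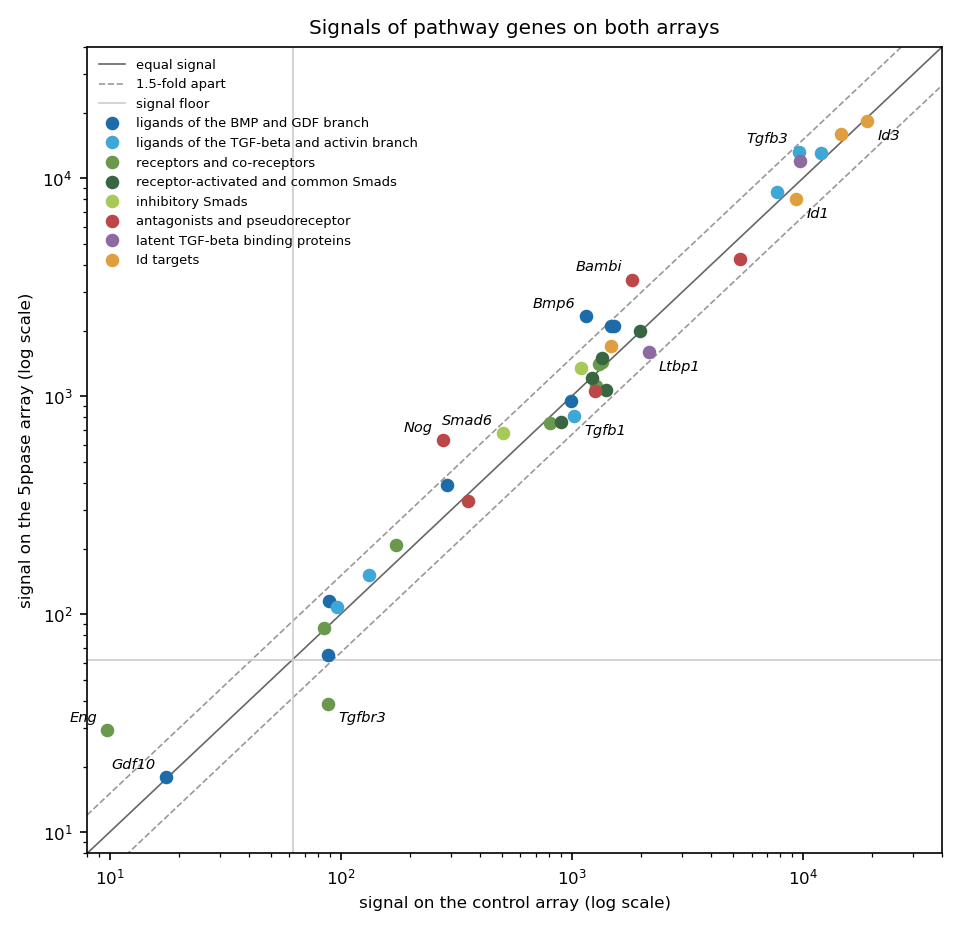
Signal on the control array (horizontal, log scale) against signal on the 5ppase array (vertical, log scale) for the 40 genes with a probe set, coloured by role, with lines for equal signal and for 1.5-fold either way. Nog, Bmp6 and Bambi lie above the upper dashed line among bright signals; Tgfbr3 and Eng are outside the dashed lines only where a signal is under the floor.

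The Smad genes that carry the signal to the nucleus all lay within 1.5-fold at their brightest probe sets, and Smad1 was the farthest from equal signal. Smad1, a BMP-responsive Smad, gave 1409 and 1070, a log2 ratio of -0.40, whereas its second probe set gave 238 and 240, a log2 ratio of 0.016. Smad5, the other BMP-responsive Smad of the list, gave 894 and 759, a log2 ratio of -0.24, and its other 3 probe sets gave -0.07, 0.19 and 0.41. For both genes the probe sets disagreed in sign. At the brightest probe sets the 4 Smads other than Smad1 lay within the probe set spread. Smad2, which carries TGF-beta and activin signals, gave 1356 and 1497, a log2 ratio of 0.14. Smad3, its paralogue, gave 1227 and 1211, a log2 ratio of -0.019 that turned positive with a loess trend removed. Smad4, the common partner, gave 1970 and 2002, a log2 ratio of 0.023 that turned negative with common median scaling, with the mean of probe sets and at its second probe set.

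Both inhibitory Smads had positive ratios. Smad6, which mainly restrains BMP receptors, gave 504 and 678, a log2 ratio of 0.43, and its second probe set gave 333 and 473, a log2 ratio of 0.51. Another, dimmer probe set of Smad6 gave 140.5 and 94.2, a log2 ratio of -0.58. Smad7, which restrains both branches, gave 1098 and 1350, a log2 ratio of 0.30. Its other 2 probe sets gave 0.32 and 0.63. All 3 probe sets of Smad7 thus pointed to higher signal in 5ppase, while those of Smad6 did not all point one way.

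The antagonists did not move together. Noggin, which binds BMP2 and BMP4 tightly and keeps them from their receptors, was 2.27-fold higher in 5ppase, and 0.847% of compared genes had a ratio as large. Bambi, a receptor look-alike without a kinase domain that is itself induced by BMP and TGF-beta, was 1.87-fold higher, and 1.94% of compared genes had a ratio as large. Nog and Bambi each had 1 probe set, so neither has a repeat on these arrays.

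The other 3 antagonists had negative ratios. Follistatin (Fst), which binds activins, gave 5338 and 4273, a log2 ratio of -0.32, and its second probe set gave 3556 and 2404, a log2 ratio of -0.56. Grem1, a BMP antagonist of the DAN family, gave 1256 and 1054, a log2 ratio of -0.25. Chrdl1, a chordin relative, gave 357 and 330, a log2 ratio of -0.11. Both probe sets of Fst pointed to lower signal in 5ppase and neither reached 1.5-fold, and the ratios of Grem1 and Chrdl1 did not exceed the probe set spread. The median over the 5 genes was -0.11, which describes neither the 2 higher genes nor the 3 lower ones.

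The proteins of the latent TGF-beta binding family had ratios of opposite sign. Ltbp1, which anchors latent TGF-beta in the matrix, gave 2152 and 1592, a log2 ratio of -0.44. Ltbp2, which is bound to microfibrils and does not bind latent TGF-beta, gave 9767 and 11993, a log2 ratio of 0.30. Neither reached 1.5-fold.

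The Id genes, a classical readout of BMP signalling, lay within 1.5-fold of equal signal at their brightest probe sets. So did 28 of the 31 compared genes of the list. Id1 gave 9347 in control and 8046 in 5ppase, a log2 ratio of -0.22. Id2 gave 14559 and 15884, a log2 ratio of 0.13, and -0.0077 at its second probe set. Id3 gave 18897 and 18275, a log2 ratio of -0.048. Id1 and Id3 were thus slightly lower in 5ppase and Id2 slightly higher or equal, each within the probe set spread of 0.26. With 1 array per group a shift of this size cannot be separated from noise.

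Id4, which is expressed in astrocytes and their precursors, was less settled. Its brightest probe set gave 1476 and 1700, a log2 ratio of 0.20. A second probe set gave 635 and 953, a log2 ratio of 0.59, and another gave 695 and 835, a log2 ratio of 0.26. The fourth, dimmer one gave 371 and 298, a log2 ratio of -0.32. The probe sets of Id4 thus ranged from lower to just over 1.5-fold higher. The median log2 ratio of the 4 Id genes was 0.039.

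Across the list 20 further probe sets of 13 genes lay above the floor on both arrays. Of these, 10 had the sign of the brightest probe set of their gene and 10 the opposite sign. At least 1.5-fold higher were 4 of them, those of Bmp2, Bmp6, Smad7 and Id4 described above, and 0 were at least 1.5-fold lower. The same shares over the further probe sets of all genes were not counted, so these 2 counts have no background beside them. At second brightest probe sets alone, 3 of the 13 compared genes of the list were higher by as much. Over all 1883 genes compared there, 6.11% were higher and 6.69% lower. How often signs were shared over all genes was not counted. The sign of a small ratio was thus often not shared between probe sets of a gene, whereas Bmp6 was higher at both of its bright ones.

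Other genes of the pathway, from lists of 102 symbols of which 82 had a probe set and 51 were compared, mostly lay within 1.5-fold. Of these 51 genes 1 was higher in 5ppase by at least 1.5-fold, beside 5.25% of all 8261 genes compared. Another 1 was lower by as much, beside 5.46%. Sostdc1, a secreted BMP and Wnt antagonist, gave 148 and 273, a log2 ratio of 0.89. Junb, an AP-1 subunit and immediate early gene that TGF-beta and many other stimuli induce, gave 3448 and 2027, a log2 ratio of -0.77. Each had 1 probe set. The median log2 ratio over the 61 measured genes of these lists was 0.013, with 32 positive and 29 negative.

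Of the other antagonists and matrix modulators 11 were compared, 7 with positive and 4 with negative ratios and a median of 0.11. Over the 14 measured, dim genes included, there were 10 positive and 4 negative ratios and a median of 0.23. Fibrillin genes, whose microfibrils hold latent TGF-beta and BMP complexes and which were chosen after their values were seen, were among the positive ones. Fbn1 gave 2645 and 3863, a log2 ratio of 0.55, and Fbn2 gave 63.7 and 140.8, too dim for the fold counts. Chordin (Chrd) gave 235 and 295, a log2 ratio of 0.33, and Twsg1, which modulates chordin, gave 3556 and 3035, a log2 ratio of -0.23; both were named after their values were seen. No further ligand outside the list was bright enough to be compared, and of 9 with a probe set 7 were under the floor.

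Of the other intracellular regulators 18 were compared and 0 were 1.5-fold apart. Of all genes compared 5.25% were higher and 5.46% lower by as much. Further Smad-responsive genes did not shift together, with 8 positive and 8 negative ratios among the 16 compared and a median of -0.0019. Over the 18 measured there were 10 positive and 8 negative ratios and a median of 0.046. The following were named after their values were seen. Ccn2, a matricellular target of TGF-beta, gave 39705 and 41937, a log2 ratio of 0.08. Msx1, a homeobox target of BMPs, gave 1995 and 1971, a log2 ratio of -0.02. Of the same list, Dlx5 had a log2 ratio of -0.03, Hey1 of 0.46 and Atoh8 of 0.39. Postn, a matrix protein that TGF-beta induces, gave 21161 and 14111, a log2 ratio of -0.58, and Acta2, smooth muscle actin, gave 14268 and 21070, a log2 ratio of 0.56. The last pair lay just inside 1.5-fold on opposite sides.

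The basic helix-loop-helix proteins that Id proteins bind or oppose were mostly dim or near equal, and those named here were chosen after their values were seen. Tcf4, an E protein bound by Id proteins, gave 16194 and 17140, a log2 ratio of 0.08, and Tcf12 gave 1110 and 1073, a log2 ratio of -0.05. Hes1, a repressor downstream of Notch, gave 2834 and 1998, a log2 ratio of -0.50. Neurog2, Neurod1, Olig1 and Olig2 were under the floor on both arrays.

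**Figure D3:**
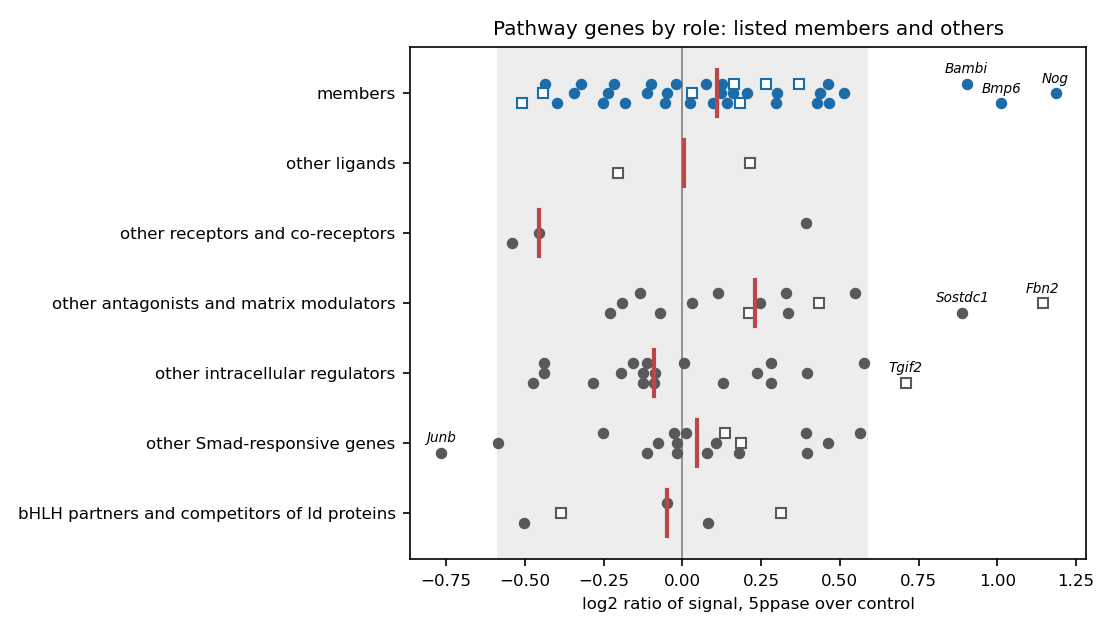
Log2 ratio of signal, 5ppase over control (horizontal axis), for the measured genes of the member list (blue) and of 6 further lists (grey), with the median of each list as a red bar, open squares for genes too dim to enter the fold counts and a grey band for 1.5-fold either way. Outside the band lie Nog, Bmp6, Bambi and Sostdc1 on the right, the dim Fbn2 and Tgif2 on the right, and Junb on the left.

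Markers of cell types that such a culture can hold also differed between the arrays. Sums here are over the measured markers of a list. Of 11 astrocyte markers with a probe set 9 were measured, 2 with a positive and 7 with a negative ratio, and they summed to 46182 in control and 26488 in 5ppase. Slc1a2 did not reach the floor on either array and Aldh1l1 was at 62.9 and 49.8, while Gfap, the defining filament protein, was bright on both at 17525 and 7408. Of the smooth muscle and pericyte markers 5 of 7 were measured, 3 positive and 2 negative, with sums of 44123 and 58199. These sums come mostly from Tagln, at 21879 and 28754, and Acta2, at 14268 and 21070. Myh11 was at 857 and 1937, while Cnn1, at 6022 and 5447, and Pdgfrb, at 1097 and 992, had the opposite order. Of the fibroblast and meningeal markers 5 of 7 were measured, 1 positive and 4 negative. Their sums of 89829 and 84216 come mostly from collagens, whereas Mgp was at 1902 and 199 and Pdgfra at 1018 and 644. Of the neuron markers 5 of 8 were measured, 3 positive and 2 negative, with sums of 6630 and 13072. Most of that difference was Stmn2, at 3766 and 11065. Tubb3, at 87.9 and 290, and the dim Slc17a7, at 41.0 and 84.3, had the same order. Gad1, at 998 and 422, and Map2, at 1737 and 1210, had the opposite order. The 2 oligodendrocyte markers measured of 7 went opposite ways, Cldn11 at 1371 and 47.2 and Cspg4 at 262 and 629. The means of Mbp, Mog, Mag, Olig2 and Sox10 were under the floor. Of 7 microglial markers 3 were measured, all positive, with sums of 1203 and 2422 that were mostly Tmem119, at 1078 and 2273, while the means of Itgam, Cx3cr1, P2ry12 and Cd68 were under the floor. Of 4 ependymal markers 2 were measured, both negative, with sums of 515 and 387, and 6 of the 7 endothelial markers were under the floor, as was Eng. The part of these shifts in the ratios of Nog, Bmp6 and Bambi was not tested, and in RNA from a whole culture fewer cells of a type and less RNA per cell cannot be told apart.

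The ratios of Nog and Bambi changed little with the processing. Over the alternatives that gave a value Nog lay between 1.15 and 1.22 and Bambi between 0.87 and 0.92. Bmp6 lay between 0.47 and 1.03, and was under 1.5-fold only when all 4 of its probe sets were averaged with the 2 dim ones held at the floor. Id1 stayed between -0.27 and -0.22 and Id3 between -0.13 and -0.048, both negative throughout.

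**Figure D4:**
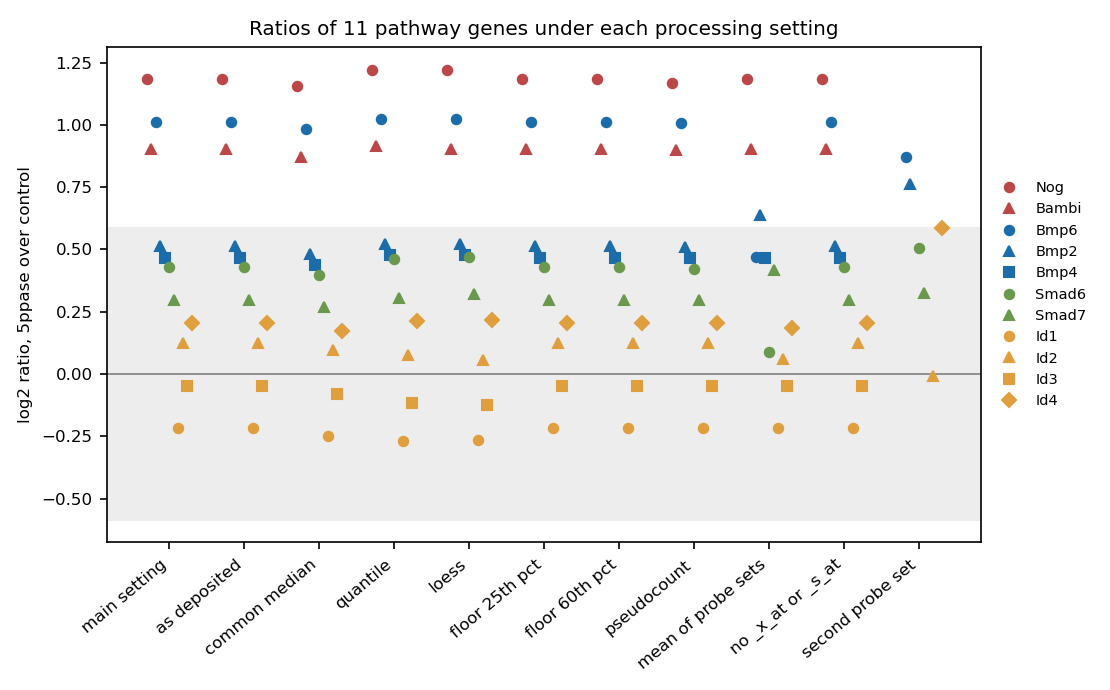
Log2 ratio, 5ppase over control (vertical axis), of 11 genes of the list under the main setting and each of 10 alternatives (horizontal axis), with a grey band for 1.5-fold either way. Nog and Bambi stay above the band wherever they have a value, Bmp6 drops into it when probe sets are averaged, and of the Id genes only the second probe set of Id4 reaches its edge.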

How the data were processed

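Values were read from the deposited table of 1 control and 1 5ppase array, 31099 probe sets each, grouped by the titles in the labels. The deposited values are linear signal intensities which MAS5 produced, per the submitters' processing notes; its version, settings and detection calls were not given in those sources. Both arrays already shared a trimmed mean of 500.2 (2% removed at each end), and this scaling was repeated, which changes neither by more than rounding and leaves any trend with signal in place. Names came from a platform annotation table for probe sets, 20832 with 1 symbol, 436 with several and 9831 not listed; symbols were checked by gene identifier against RefSeq (GRCr8), where 20764 matched. Deposited signals ran from 0.1 to 43892 (median 107) in control and from 0.2 to 49734 (median 109) in 5ppase. The floor is a percentile and not a detection call; it understates ratios of dim genes. Per gene the probe set of highest mean was used, and log2 ratios were taken of the deposited intensities after that scaling and with values under the floor raised to it. With 1 array per group no p-value was computed.

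The genes and lists were chosen with earlier results of these data known. All listed genes are accounted for; other pathway genes were named when compared and at least 1.5-fold apart, at most 4 per list, and others are marked. Promoter windows and motifs were searched with Python 3.11.15, pandas 2.3.3 and numpy 2.4.6, and the loess trend (span 0.3) was fitted with statsmodels 0.14.6. The steps were run on simulated data with known ratios, equal noise at every signal and a shared ratio for the probe sets of a gene. Such a run checks the code and does not show the precision of these arrays. The alternatives were no scaling, a common median, quantile normalization, loess, a floor at the 25th percentile, a floor at the 60th where the brighter array had to reach the 75th, a pseudocount of 6.40 in place of floor and filter, the mean of probe sets, no _x_at or _s_at probe sets, and the second brightest probe set. Sample columns left unused numbered 0.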

Additional observations from a re-analysis of the deposited data

How the results depend on the processing

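The number of genes at least 1.5-fold higher was 3 or 4 under all 10 alternatives, though not always the same genes: Bmp2 took the place of Bmp6 with the mean of probe sets, Bmp2, Bmp6 and Id4 made up the 3 with second brightest probe sets, which Nog and Bambi do not have, and Eng, under the floor on both arrays, made the 4 with a pseudocount. With the pseudocount 4 of 40 genes (10%) stood beside 14.1% of all 14218 genes, so the share was below that of all genes, whereas it was above it in the main setting (9.68% beside 5.25%) and under the other 9 alternatives. The number at least 1.5-fold lower was 0 except with the pseudocount, where it was 1, Tgfbr3. The median log2 ratio of the measured genes was 0.045 with the mean of probe sets and 0.016 over the 13 genes with a measured second probe set, and between 0.074 and 0.11 under the other alternatives. Of all genes compared, 434 were at least 1.5-fold higher and 451 lower, 220 and 217 under a floor at the 60th percentile, and 1998 and 1785 (14.1% and 12.6% of 14218) with the pseudocount, which lets dim genes enter. No called gene changed sign under an alternative that gave it a value. No paired analysis was possible because each group has 1 array and the labels number no replicates. Signals near the floor limit what can be said of Bmp3, Bmp7, Inha, Inhbb, Acvr2a, Acvr2b and Tgfbr3.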
